A study of Mus musculus with 6 samples.

Results

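Cells detect viral and misplaced self nucleic acid in the cytosol and in endosomes with a small set of receptors, and 10 genes of this machinery were followed here in cultured mouse hepatocytes. They were chosen by name from the 57180 genes of the expression table, and all 10 were found in it. They are the DNA sensor *Cgas*, its adaptor *Sting1*, the RNA sensors *Ifih1* and *Tlr3*, the Z-form nucleic acid sensor *Zbp1*, the RNA pathway adaptor *Mavs*, the kinases *Tbk1* and *Ikbke*, the transcription factor *Irf3* and the DNase *Trex1*. Primary hepatocytes from male STING Loxp mice, which carry floxed *Sting1* alleles, were compared with hepatocytes from male STING LKO mice, which carry the same floxed alleles and a Cre recombinase driven by the albumin promoter in hepatocytes. Cells of both groups were isolated by collagenase perfusion, cultured in MEM alpha with 0.1 μM dexamethasone and 10% fetal bovine serum, and treated with 0.1 mM palmitate (PA), a saturated fatty acid, for 24 h. Each group had 3 libraries, with no untreated cells among them. The mice of the study had a C57BL/6 background and an age of 8 to 10 weeks. The sources do not say whether the 3 libraries came from separate animals or whether the controls carried Cre, so each p-value measures the spread between these libraries.

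In the textbook pathway, cGAS binds double-stranded DNA and makes cyclic GMP-AMP, which activates STING on the endoplasmic reticulum. MDA5, the product of *Ifih1*, binds long double-stranded RNA and signals through MAVS on mitochondria, while TLR3 reads double-stranded RNA in endosomes. These routes meet at the kinases TBK1 and IKKε and at IRF3, which switches on interferon genes. Several sensors, *Ifih1* and *Zbp1* among them, are themselves interferon-inducible genes. In liver, STING is best known from the nonparenchymal cells, Kupffer cells among them.

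Promoter sequence was taken from RefSeq (GRCm38.p6), and windows of 8 of the 10 genes were used. No window of *Zbp1* or *Sting1* was searched, so nothing is said of their promoters. The windows were searched on both strands for the core of the interferon-stimulated response element (GAAA, any 2 bases, GAAA), for the STAT site TTCNNNGAA and for the κB site (GGGA, any 4 bases, CC). In the 250 bases before the start, none of the 8 genes held the response element core, against 2.98% of 32851 promoters, and none held the STAT site, against 7.02%. A κB match was found for *Tlr3*, which held 3 (211, 23 and 9 bases before the start), and for *Cgas*, against 17.6% of these promoters. When the window was extended by 50 bases past the start, beyond the 250 bases first chosen, *Ifih1* held a response element core 33 bases after it, in a window that held one in 3.44% of promoters. The matched stretches, for *Tlr3* that of the match farthest from the start, are shown with the motif in capitals, because *Ifih1* changed in these libraries and *Tlr3* and *Cgas* did not pass the test.
*Ifih1* (chr2:62646206-62646235, minus strand): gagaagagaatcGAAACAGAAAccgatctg
*Tlr3* (chr8:45410572-45410601, minus strand): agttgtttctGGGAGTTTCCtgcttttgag
*Cgas* (chr9:78443298-78443327, minus strand): tggctcagtgGGTGGTTCCCcagctagtgg
The *Cgas* match reads on the strand opposite to the gene. A match is only a run of letters and was not tested as a binding site.

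Counted reads ran from 14726983 to 18536985 per library, of which the 10 genes together took from 0.0328% to 0.0567%. The hepatocyte identity of the cells was visible in *Alb*, at a mean FPKM of 7670 in STING Loxp and 6541 in the libraries labelled STING LKO. FPKM is the read count scaled to gene length and to the size of the library. RNA of other liver cells was present. The most abundant of their markers, *Cd68*, had a mean FPKM of 37.5 in STING Loxp and 21.1 in STING LKO, far below *Alb* and above each of the 10 genes. *Cd68* stood apart from the other macrophage markers. Averaged over the groups, the next of them, *Lyz2*, had an FPKM of 7.92. *Adgre1* and *Csf1r*, named after their values were seen, had 0.688 and 0.584. The 12 lymphocyte markers were at 0 counts throughout (a count of 0 allows up to 3), and the 8 neutrophil markers had 14 counts in all. Of 18 macrophage and Kupffer cell markers, *Clec4f*, which defines Kupffer cells, had a mean FPKM of 1.57 and 1.75 in the groups, and *Timd4* had 18 counts over all libraries.

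*Sting1* (ENSMUSG00000024349) is the targeted gene and was examined first. STING Loxp replicates 1, 2 and 3 gave 19, 16 and 23 counts of it, and those labelled STING LKO gave 24, 23 and 15. The groups overlapped, and the libraries with the highest and the lowest normalized level, replicates 1 and 3, were both labelled STING LKO. By the quasi-likelihood test of edgeR, its log2 fold change was -0.08 with a standard error of 0.298 (adjusted p = 0.883). The 95% confidence interval of the ratio of STING LKO to STING Loxp ran from 0.591 to 1.52, so that a loss of most *Sting1* reads lay outside it. Which exons were floxed is not given in the sources used here, and a transcript of the other exons would keep its reads. Reads of *Sting1* could also come from the other liver cells whose RNA was present. Neither source was tested. In these libraries the genotype is taken from the labels, and directions are given from STING Loxp to the libraries labelled STING LKO.

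The levels of the 10 genes spanned a wide range, with the kinases and the adaptor *Mavs* at the top and the DNA arm of the pathway at the bottom. Averaged over the groups, *Ikbke* had an FPKM of 14.4, *Tbk1* 10.2, *Mavs* 9.87, *Irf3* 4.92, *Ifih1* 4.47, *Trex1* 2.21, *Zbp1* 1.32, *Tlr3* 0.683, *Sting1* 0.181 and *Cgas* 0.0934. Against the 14151 genes with enough counts to be tested, whose median FPKM was 3.93, *Ikbke* lay at the 79.0th percentile and *Cgas* at the 1.48th. *Sting1* lay at the 4.52nd percentile and *Tlr3* at the 18.1st, so that these 3 genes, with a mean FPKM under 1 in both groups, were among the least abundant genes that could be tested. On the scale of the deposited FPKM, some neighbours in this order changed places between the groups. *Ikbke* exceeded *Tbk1* in 4 of 6 libraries, which were all STING Loxp libraries and replicate 3 of STING LKO. *Tbk1* exceeded *Mavs* in 3 of 6, which were the STING Loxp libraries. *Irf3* exceeded *Ifih1* in 3 of 6, which were the libraries labelled STING LKO. *Mavs* exceeded *Irf3*, *Ifih1* exceeded *Trex1*, *Trex1* exceeded *Zbp1*, *Tlr3* exceeded *Sting1* and *Sting1* exceeded *Cgas* in 6 of 6 libraries, and *Zbp1* exceeded *Tlr3* in 5. The drop from *Tlr3* to *Sting1* was 3.78-fold and the largest between neighbours.

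**Figure D1:**
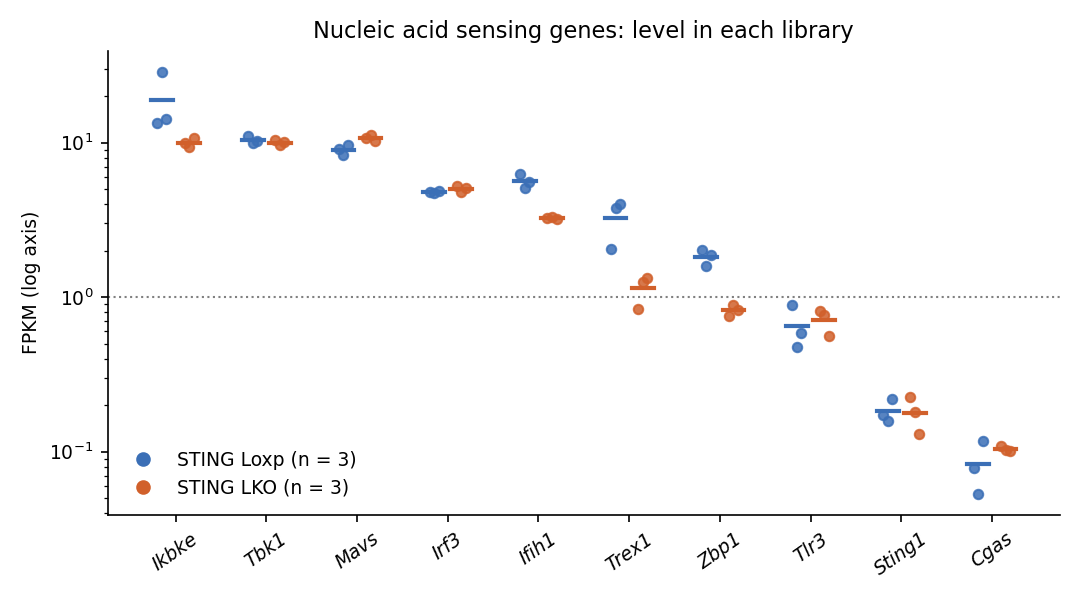
FPKM (log axis) of the 10 genes in each of 3 STING Loxp libraries and 3 libraries labelled STING LKO, with points for libraries, horizontal bars for group means and a dotted line at an FPKM of 1. *Sting1* and *Cgas* lie below 0.3 in every library, while *Ikbke*, *Tbk1* and *Mavs* lie above 8 in every library.

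These levels depend on the length assigned to each gene. The deposited counts and FPKM imply lengths from 1.85 to 4.13 times those of a coding transcript of the gene in GENCODE M21. These lengths were inferred, with all counted reads of a library as its size. They were 11.8 kb against 3.25 kb for *Ikbke* and 8.38 kb against 2.03 kb for *Irf3*. For *Irf3*, *Trex1* and, slightly, *Sting1* they exceeded the span of the gene on its chromosome, so they are not gene lengths alone. Scaled to the coding transcript, a choice made after the data had been seen, *Ikbke* came to 52.6, *Irf3* to 20.3, *Tbk1* to 19.9 and *Mavs* to 18.3, and *Irf3* moved from the fourth place to the second. *Cgas* (0.205) and *Sting1* (0.541) stayed last. On this scale *Ikbke* exceeded *Tbk1* in the means of both groups (68.7 against 20.3 in STING Loxp, 36.5 against 19.5 in STING LKO). *Irf3* likewise exceeded *Ifih1* in both (19.8 against 11.7, 20.8 against 6.77). *Tbk1* and *Mavs* still changed places (20.3 against 16.7 in STING Loxp, 19.5 against 19.9 in STING LKO). The scale does not affect comparisons of 1 gene between groups.

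Of the 10 genes, all of which passed the filter on low counts, 4 were lower in the libraries labelled STING LKO, 0 were higher, and 6 did not pass an adjusted p of 0.05. The 4 were *Trex1*, *Zbp1*, *Ikbke* and *Ifih1*. Over all 14151 genes tested, 23.1% passed this threshold, 11.6% as lower and 11.5% as higher. None of the 10 was higher in DESeq2, in edgeR's likelihood ratio test or in limma-trend either, and 1, *Mavs*, was higher at an unadjusted p under 0.05. Estimates were below 0 for 6 of the 10, against 50.3% of all genes tested. The median log2 fold change of the 10 genes was -0.09, and that of all genes tested was 0.00. By the authors' criteria, which also ask for a log2 change beyond 1 and for 1 group with an average FPKM over 1, 2 genes were lower, *Trex1* and *Zbp1*, where 1.49% of all genes tested were.

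**Figure D2:**
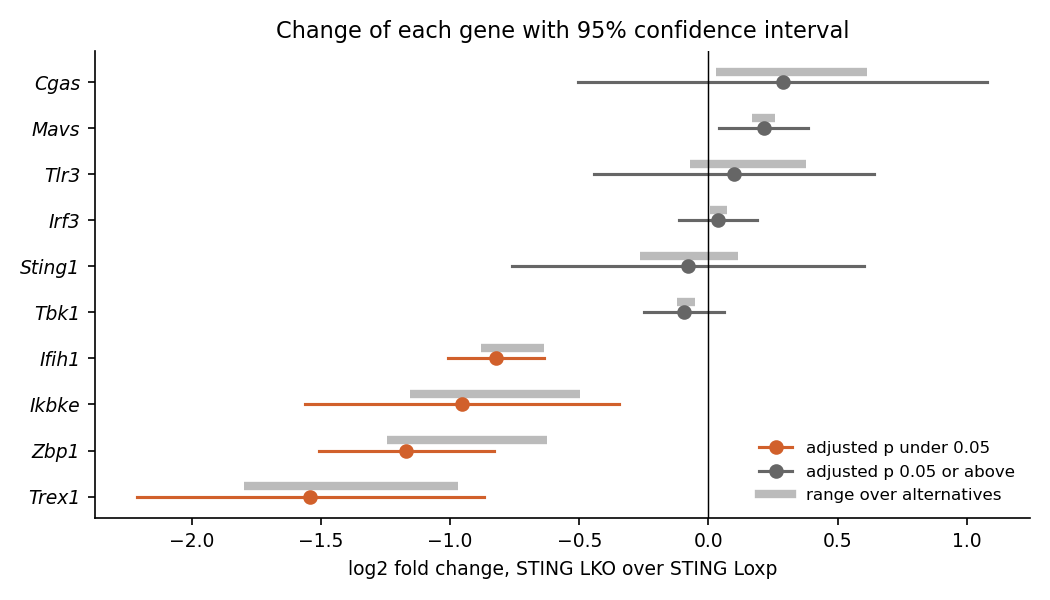
Log2 fold change of each gene (libraries labelled STING LKO over STING Loxp, 3 libraries per group) from edgeR, with points for estimates, thin lines for 95% confidence intervals and grey bars for the range of estimates over the alternative analyses. The intervals of *Trex1*, *Zbp1*, *Ikbke* and *Ifih1* lie below 0, and those of *Cgas*, *Sting1* and *Tlr3* are the widest of the others.

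Among the sensors, *Ifih1* and *Zbp1* fell while *Cgas* and *Tlr3* did not pass the test. *Ifih1* (ENSMUSG00000026896, chromosome 2, 62426142 to 62476599 on GRCm39, the build named in the submitters' processing notes) had FPKM values of 6.28, 5.12 and 5.58 in STING Loxp and 3.27, 3.33 and 3.23 in the libraries labelled STING LKO. The groups did not overlap, and the 3 STING LKO libraries lay close together. *Ifih1* fell by 0.82 on the log2 scale (standard error 0.0817, adjusted p = 0.000358), a level 1.77-fold lower, with the ratio between 0.497 and 0.643 in the 95% confidence interval. *Ifih1* kept this direction and stayed past the threshold in each of 15 alternative analyses.

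*Zbp1* encodes a sensor of Z-form RNA and DNA that can trigger necroptosis. The gene (ENSMUSG00000027514, chromosome 2, 173048405 to 173060716) had FPKM values of 2.01, 1.59 and 1.86 in STING Loxp and 0.760, 0.893 and 0.826 in the libraries labelled STING LKO. Every STING LKO library thus lay under 1 and every STING Loxp library above it. On the scale of counts divided by normalized library size (CPM), this was 8.90 ± 0.922 against 3.95 ± 0.344 (SD, n = 3 per group). *Zbp1* fell by 1.17 on the log2 scale (standard error 0.148, adjusted p = 0.00114), or 2.25-fold, and 15 of 15 alternatives kept both its direction and its call.

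*Cgas*, the sensor of cytosolic DNA (ENSMUSG00000032344, chromosome 9, 78337808 to 78350519), was covered by 11, 7 and 16 reads in STING Loxp against 15, 17 and 15 in STING LKO. The groups overlapped, and STING Loxp held both the lowest and the highest normalized level. Its estimate was 0.29 on the log2 scale (standard error 0.346, adjusted p = 0.601), and the 95% confidence interval of the ratio ran from 0.706 to 2.11. Changes within this interval were not excluded at this depth. *Tlr3*, the endosomal sensor of double-stranded RNA (ENSMUSG00000031639, chromosome 8, 45848702 to 45864117), had FPKM values of 0.888, 0.476 and 0.590 against 0.811, 0.770 and 0.564. The spread within STING Loxp was wider than the difference between the groups. On the log2 scale its estimate was 0.10 (standard error 0.237, adjusted p = 0.805), with the ratio between 0.736 and 1.56, and it turned to -0.07 without STING Loxp replicate 2.

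*Trex1* had the largest change of the 10 genes. It encodes the 3′ exonuclease that degrades cytosolic DNA and so removes the ligand of cGAS. The gene (ENSMUSG00000049734, chromosome 9, 108887001 to 108888802) was covered by 70, 119 and 131 reads in STING Loxp against 28, 50 and 48 in STING LKO. In FPKM these were 2.06, 3.78 and 4.0 against 0.844, 1.26 and 1.34. Replicate 1 was the lowest library of both groups, yet the groups did not overlap. *Trex1* fell by 1.54 on the log2 scale (standard error 0.293, adjusted p = 0.00733), or 2.91-fold, with the ratio between 0.216 and 0.547. It stayed past the threshold in 15 of 15 alternatives, with estimates from -1.80 to -0.97.

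*Trex1* lies wholly inside the span that the table gives for *Atrip* (chromosome 9, 108887001 to 108903192), a gene of the DNA damage checkpoint. Reads could be split between them. The strand setting of the counting is not given in the sources used here. *Atrip* itself had from 196 to 362 counts per library, with an estimate of -0.11 on the log2 scale (adjusted p = 0.731). The span of *Irf3* likewise overlaps that of *Bcl2l12*, which had from 73 to 161 counts and rose by 0.63 on the log2 scale (adjusted p = 0.0214), against 580 to 740 counts for *Irf3*.

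The adaptor *Mavs*, which carries the MDA5 signal, had a higher mean in the libraries labelled STING LKO, without passing the test. The gene (ENSMUSG00000037523, chromosome 2, 131075983 to 131089945) had FPKM values of 9.10, 8.38 and 9.60 against 10.7, 11.2 and 10.2. The groups did not overlap, as was the case for 5 of the 10 genes and for 40.7% of all genes tested. Its estimate was 0.21 on the log2 scale (standard error 0.0759, adjusted p = 0.0787), with the ratio between 1.03 and 1.31. Over 15 alternatives its adjusted p lay between 0.0522 and 0.230.

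The related kinases *Tbk1* and *Ikbke* gave different values. *Tbk1* (ENSMUSG00000020115, chromosome 10, 121382360 to 121422692) encodes the kinase that phosphorylates IRF3. Its FPKM was 11.1, 10.0 and 10.2 in STING Loxp and 10.4, 9.60 and 10.0 in the libraries labelled STING LKO, with an estimate of -0.09 on the log2 scale (standard error 0.0675, adjusted p = 0.368). The groups overlapped, and the 95% confidence interval of the ratio, from 0.842 to 1.04, left room for only small changes. *Ikbke* (ENSMUSG00000042349, chromosome 1, 131182080 to 131207344) encodes IKKε, whose gene is known to respond to inflammatory signals. It had FPKM values of 13.5, 28.8 and 14.3 in STING Loxp and 9.91, 9.44 and 10.7 in the libraries labelled STING LKO. STING Loxp replicate 2 stood apart with 5018 counts, against 2540 and 2598 in the other STING Loxp libraries. The coefficient of variation of normalized counts was 47.1% in STING Loxp and 5.29% in STING LKO.

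*Ikbke* fell by 0.95 on the log2 scale (standard error 0.266, adjusted p = 0.0340), or 1.94-fold. Without STING Loxp replicate 2 it was -0.50, or 1.41-fold lower, with an adjusted p of 0.00340. The call was lost in 7 of 15 alternatives. With DESeq2 the adjusted p was 0.0673, and without STING LKO replicate 1, 2 or 3 it was 0.0928, 0.103 and 0.0808. The direction of *Ikbke* was therefore stable over these analyses and its call was not.

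*Irf3*, the transcription factor on which the routes meet (ENSMUSG00000003184, chromosome 7, 44647072 to 44652272), had the estimate nearest to 0. Its FPKM was 4.78, 4.70 and 4.89 in STING Loxp and 5.27, 4.76 and 5.09 in the libraries labelled STING LKO. On the log2 scale this was 0.04 (standard error 0.0668, adjusted p = 0.741), with the ratio between 0.923 and 1.14.

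Ratios between members were also formed within each library, where the normalization between libraries cancels. *Ifih1* was 0.691, 0.611 and 0.581 times the FPKM of *Mavs* in STING Loxp replicates 1, 2 and 3 and 0.306, 0.296 and 0.316 times in the libraries labelled STING LKO. *Tbk1* was 0.821, 0.348 and 0.714 times *Ikbke* against 1.05, 1.02 and 0.938 times. *Trex1* was 26.5, 70.8 and 34.1 times *Cgas* in STING Loxp, against 7.77, 12.2 and 13.3 times in STING LKO. None of these 3 ratios overlapped between the groups, nor did that of *Ifih1* to *Cgas*, with means of 74.7 ± 24.7 and 31.5 ± 1.21 (SD, n = 3 per group). Each of these 4 ratios holds *Ifih1*, *Trex1* or *Ikbke*, so that it largely repeats the fall of that gene given above. The share of other gene pairs without overlap is not given here. The ratios to *Cgas* rest on 7 to 17 counts of *Cgas* per library. *Mavs* exceeded *Sting1* 49.8 ± 5.02 times in STING Loxp and 62.9 ± 15.6 times in STING LKO, and these groups overlapped. For the 4 ratios that did not overlap, p was 0.1 in an exact permutation test (two-sided), the smallest that 3 libraries against 3 allow, and it was 0.3 for *Mavs* over *Sting1*. Adjusted over the 5 ratios by Benjamini-Hochberg, these exact p-values were 0.125 and 0.3.

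**Figure D3:**
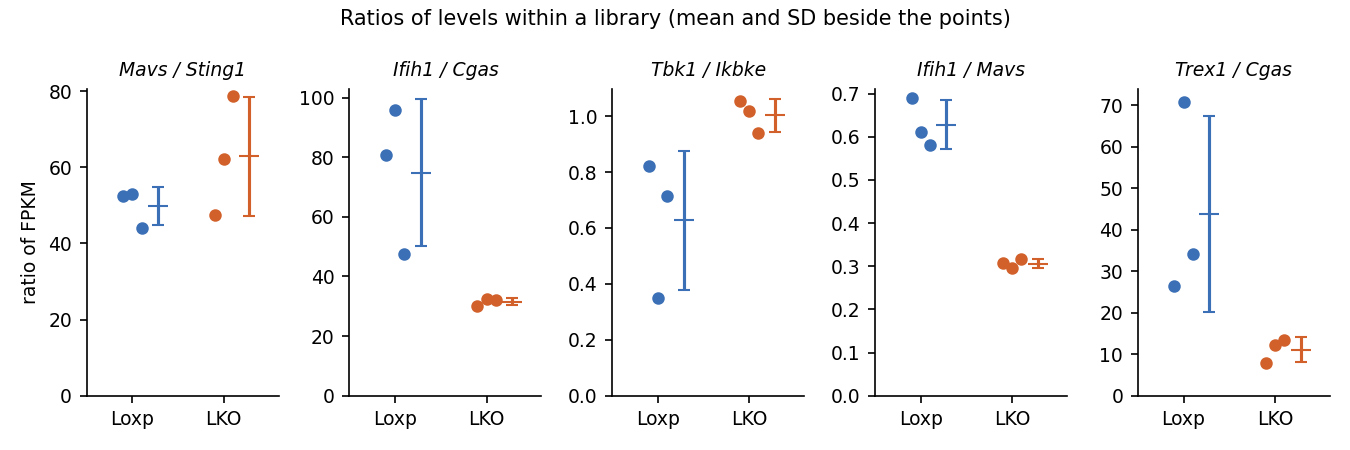
Ratio of the FPKM of 2 genes within each library (vertical axes from 0, one scale per panel), with points for the 3 libraries of a group and the mean with its SD beside them. The ratio of *Ifih1* to *Mavs* is 0.628 in STING Loxp and 0.306 in STING LKO on average, and the ratio of *Mavs* to *Sting1* overlaps between the groups.

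Markers of other liver cells were set beside these changes, since in bulk RNA fewer cells of a type and less RNA per cell cannot be told apart. Of 17 macrophage and Kupffer cell markers tested, 2 fell, *Cd68* (by 0.87 on the log2 scale) and *Mpeg1* (by 0.69), while the estimate was 0.18 for *Lyz2* (adjusted p = 0.353) and 0.12 for *Clec4f* (adjusted p = 0.840). Without STING Loxp replicate 2, 3 were lower, *Cd163* in addition (-0.79, adjusted p = 0.0317), and 1 was higher, *Cd5l* (0.58, adjusted p = 0.0490), both named after their values were seen. With all libraries the edgeR estimate of *Cd5l* was 0.94 (adjusted p = 0.0853). In that set 1 marker of the list was higher in DESeq2, in the likelihood ratio test and at an unadjusted p under 0.05. The summed FPKM of the list was from 69.5 to 87.6 in STING Loxp and from 56.9 to 65.8 in the libraries labelled STING LKO, and without *Cd68* from 31.8 to 47.5 and from 37.4 to 42.9, which overlapped. Sinusoidal endothelial genes were led by *Cdh5*, *Lyve1* and *Eng*. Of 13 tested, 1 fell, *Stab2*, named after its value was seen (by 0.49), and 3 passed without STING Loxp replicate 2. The list summed to between 37.7 and 42.1 in STING Loxp and between 35.6 and 38.9 in STING LKO. Of 9 stellate cell markers tested, led by *Ecm1*, *Sparc* and *Dcn*, 0 passed in edgeR or DESeq2 and 1 at an unadjusted p under 0.05. The list summed to between 17.5 and 19.3 against 17.5 and 19.4.

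Of 8 dendritic cell markers, *Zbtb46* alone was tested and did not pass (adjusted p = 0.598), and 5 were at 0 counts, *Xcr1* and *Siglech* among them. The list summed to between 0.686 and 0.926 in STING Loxp, against 0.876 to 1.08. Of 3 cholangiocyte markers tested, *Sox9* and *Spp1* fell and *Krt19* rose, the latter not without STING Loxp replicate 2 (adjusted p = 0.119). The other markers of this list, *Krt7*, *Epcam* and *Cftr*, had 18, 43 and 9 counts over all libraries and were not tested. The list summed to between 19.9 and 23.2 in STING Loxp, against 10.4 to 11.7 in STING LKO. Most of this sum was *Sox9* and *Spp1*, with an FPKM of 10.4 and 4.46 averaged over the groups, against 1.25 for *Krt19*. Of 12 hepatocyte markers, 9 fell, *Alb* (by 0.27) and *Serpina1a* (by 0.40) among them, and *Apoa1* did not pass (-0.09, adjusted p = 0.232). The list summed to between 10421 and 10840 in STING Loxp, against 8986 to 9136. Reads of *Serpina1a* may be shared with its near-identical paralogs. The part of these markers in the changes of *Ifih1*, *Zbp1*, *Trex1* and *Ikbke* was not tested.

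The other genes of these pathways were read from 7 hand-written lists, in which 133 genes were found in the table and 118 had enough counts. Of these 118, 23 were lower and 9 higher, so that 27.1% passed against 23.1% of all genes tested. Their median log2 fold change was -0.11. The other 86 did not pass the test. Without STING Loxp replicate 2, 15 of the 118 were lower and 7 higher. By list, the share that passed ran from 13.3% for the nucleases to 43.5% for the shared adaptors, kinases and transcription factors. For the DNA sensors it was 23.5% and for the RNA sensors 22.2%, close to the 23.1% of all genes tested. The share of a list was not tested against that of all genes.

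**Figure D4:**
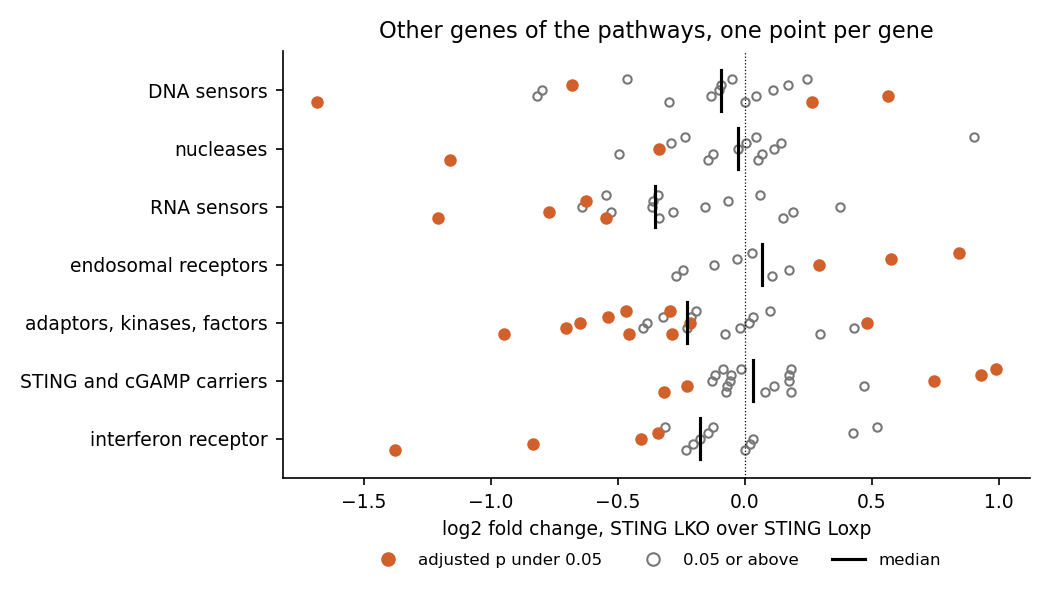
Log2 fold change (libraries labelled STING LKO over STING Loxp) of the other pathway genes, one point per gene in 7 lists, filled where the adjusted p is under 0.05, with a vertical bar at the median of each list. The median is lowest for the RNA sensors, at -0.35, and highest for the endosomal receptors, at 0.07.

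Of 18 further cytosolic RNA sensors and cofactors tested, 4 fell and 0 rose. By edgeR 1 was higher at an unadjusted p under 0.05, and by DESeq2 0 were. The relatives of *Ifih1* were among them. *Rigi*, the sensor of short and 5′-triphosphate RNA, went from an FPKM of 6.95 ± 0.981 to 4.62 ± 0.190 (SD, n = 3 per group), or -0.62 on the log2 scale (adjusted p = 0.00296). *Dhx58*, which encodes the regulatory helicase LGP2, went from 8.48 ± 1.11 to 5.09 ± 0.543 (-0.77, adjusted p = 0.00202). All 3 genes of the RIG-I-like receptor family thus fell. *Oasl2*, a member of the oligoadenylate synthetase family (-1.21), and *Rnf135*, a ubiquitin ligase of RIG-I (-0.55), fell as well. *Trim25*, the most abundant gene of this list and another ubiquitin ligase, had FPKM means of 28.1 and 37.4 without passing (adjusted p = 0.156). Without STING Loxp replicate 1, 1 gene of the list was higher.

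Of 17 further DNA sensors and cofactors tested, 2 fell and 2 rose, so that 23.5% passed, against 23.1% of all genes tested. *Ifi205* (-1.69) and *Ifi203* (-0.68), both of the interferon-inducible p200 family, were lower. This family has near-identical copies between which reads can be shared, and neither passed without STING Loxp replicate 2 (adjusted p = 0.139 and 0.0912). The DNA repair genes *Mre11a* (0.56) and *Xrcc5* (0.26) were higher. *G3bp1*, the most abundant of the list, did not pass (0.04, adjusted p = 0.729). The number lower was 0 without STING LKO replicate 1, 2 or 3 or STING Loxp replicate 1 or 2, and 1 without STING Loxp replicate 3. The number higher was 1 without STING LKO replicate 1 or 2 or STING Loxp replicate 2. It was 4 without STING Loxp replicate 1.

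Of 15 nucleases and related enzymes tested, 2 fell. *Dnase2b*, a lysosomal-type DNase, went from an FPKM of 1.98 ± 0.519 to 0.907 ± 0.0692 (-1.16, adjusted p = 0.00766), and *Enpp1*, which hydrolyses cyclic GMP-AMP, fell by 0.34 (adjusted p = 0.0487). 0 rose, at an unadjusted p under 0.05 in edgeR or in DESeq2 alike. *Banf1*, which shields chromosomal DNA and was the most abundant of this list, had an estimate of 0.14 (adjusted p = 0.699). Leaving out any 1 library other than STING Loxp replicate 3 left 1 nuclease lower, and leaving out that replicate gave 1 higher.

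Of 10 endosomal receptors and adaptors tested, 3 rose and 0 fell. By edgeR 1 was lower at an unadjusted p under 0.05, and by DESeq2 0 were. *Ticam1*, which encodes TRIF, the adaptor of TLR3, went from an FPKM of 5.78 ± 0.641 to 8.83 ± 0.450 (0.58, adjusted p = 0.00632), while *Tlr3* itself did not pass. *Slc15a4* (0.29) and *Tlr13* (0.84), an RNA receptor with FPKM means of 0.261 and 0.482, rose too. *Cd14*, the most abundant of the list, did not pass (-0.03, adjusted p = 0.840). Only 1 gene was higher without STING LKO replicate 1, 2 or 3 or STING Loxp replicate 3.

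Among 23 shared adaptors, kinases and transcription factors, all tested, 9 fell and 1 rose. *Irf9*, a subunit of the interferon-activated complex ISGF3, went from an FPKM of 6.28 ± 0.369 to 3.94 ± 0.210 (-0.70, adjusted p = 0.000512). *Traf2* (-0.65), *Nfkb2* (-0.54) and *Rela* (-0.29, the most abundant of the list) fell, while *Ikbkg*, the regulatory subunit NEMO, rose by 0.48 (adjusted p = 0.000960). Without STING Loxp replicate 2, 6 of the list were lower and 1 higher, and *Rela* no longer passed (adjusted p = 0.0614). Without STING LKO replicate 1 or 2, 4 and 5 were lower, and without STING Loxp replicate 1, 2 were higher.

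Of 15 interferons, receptors and receptor signalling genes tested, 4 fell. 0 rose, at an unadjusted p under 0.05 in edgeR or in DESeq2 alike. *Usp18*, an interferon-induced brake on the receptor, went from an FPKM of 22.6 ± 2.85 to 8.92 ± 0.676 (-1.38, adjusted p = 7.79e-05). *Stat2* (-0.41), a transcription factor of interferon signalling, and the receptor kinase gene *Jak2* (-0.34) fell as well. *Jak1*, the most abundant of the list, did not pass (-0.12, adjusted p = 0.0884). *Ifna2*, *Ifna4*, *Ifnb1*, *Ifnl2*, *Ifnl3* and *Ifng* were at 0 counts throughout.

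Of 20 genes tested that carry, modify or retain STING or carry cyclic dinucleotides, 3 rose and 2 fell. *Slc19a1*, a folate carrier able to import cyclic dinucleotides, went from an FPKM of 4.65 ± 0.257 to 7.99 ± 0.216 (0.74, adjusted p = 0.000236). *Insig1*, a sterol-regulated protein of the endoplasmic reticulum, went from 8.50 ± 1.14 to 16.6 ± 1.20 (0.93, adjusted p = 0.000648), and the exporter *Abcc1* from 1.57 ± 0.474 to 3.20 ± 0.121 (0.99, adjusted p = 0.00647). *Copa*, a coat protein of retrograde transport, fell by 0.23 (adjusted p = 0.00803), as did *Ulk1*, an autophagy kinase named after its value was seen (by 0.32). Without STING LKO replicate 1 or 2 or STING Loxp replicate 2 or 3, 1 of the list was lower. *Surf4*, the most abundant of the list, did not pass (0.08, adjusted p = 0.391).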

How the data were processed

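RNA-seq was measured in 6 libraries of palmitate-treated hepatocytes, 3 per group, grouped by their titles. Per the methods and the submitters' processing notes, alignment by the authors used HISAT2 and GRCm39 (fastp, StringTie and edgeR are also named) and deposited 1 table with a raw read count and an FPKM value per gene and library. The strand setting is not given in the sources used here. The counts were tested with edgeR 4.0.16 under R 4.3.3 (filterByExpr with a minimum count of 10, TMM, two-sided quasi-likelihood test, Benjamini-Hochberg adjustment over 14151 genes). Normalized CPM was computed with TMM library sizes. The alternatives were DESeq2 1.42.0, limma-trend (3.58.1) on log2(FPKM + 1) and log2(FPKM + 0.1), other factors, filters and tests, a replicate block and each library left out. The fit was tested on simulated data. The confidence intervals come from the edgeR fit and include the spread between replicates, while the limit given for a count of 0 covers counting error only. Replicates of a group differed beyond sampling noise (chi-square divided by its degrees of freedom, 7.60 to 16.1).

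The 10 genes, the lists and the tests were chosen with earlier results of these data known. Named besides the 10 were, in each pathway list, up to 4 genes with the smallest adjusted p under 0.05 and the most abundant gene, and in each marker list the 3 most abundant genes, with *Alb* and *Clec4f*. 1 gene that this rule names is not reported here. Motif windows came from RefSeq (GRCm38.p6), transcript lengths from GENCODE M21. Figures were drawn with matplotlib 3.10.9.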

Additional observations from a re-analysis of the deposited data

How the results depend on the processing

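The direction and call of *Trex1*, *Zbp1*, *Ifih1*, *Tbk1*, *Irf3*, *Mavs* and *Cgas* were kept in all alternatives that gave a value (15 each, 14 for *Cgas*, which has no value when 10 counts in every library are required). *Ikbke* lost its call with DESeq2 (-0.96, adjusted p = 0.0673), with every gene of at least 1 count (-0.95, 0.0631) and with limma-trend at a pseudocount of 0.1 FPKM (-0.82, 0.0657) or 1 FPKM (-0.77, 0.0706). The cause was not tested. Over left-out libraries its log2 fold change ran from -1.16 to -0.50. Without single libraries, *Sting1* ran from -0.26 to 0.11 and *Tlr3* from -0.070 to 0.38, changing sign without a call. The number of the 10 genes that were lower was 4. It was 3 in the 7 alternatives in which *Ikbke* lost its call, those named above and those without STING LKO replicate 1, 2 or 3. Under the 3 criteria of the study, which *Ikbke* and *Ifih1* fail by fold change, it was 2. The number of other pathway genes that were lower, 23, was 15 with every gene of at least 1 count, 2 under the 3 criteria, and from 13 to 20 over left-out libraries, with 14 and 13 without STING LKO replicate 1 or 2 and 15 without STING Loxp replicate 2. Those that were higher, 9, became 0 under the 3 criteria. With the coding transcript's length, 7 of the 10 genes kept their place in the order of levels, and with normalized CPM per length all 10 did. Same-numbered libraries share only a number, with correlations of their deviations of 0.132, 0.0729 and 0.0256. With the replicate block 4 of the 10 genes and 21 of the other genes were lower and 9 higher, and *Ikbke* had an adjusted p of 0.0461. Depth limits *Cgas* and *Sting1*, with 81 and 120 counts over all libraries. *Tlr3* had 787, and a coefficient of variation of 31.5% in STING Loxp.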

Other observations

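The members that fell also differed in how evenly they were measured. The coefficient of variation of normalized counts in STING Loxp and in the libraries labelled STING LKO was 9.13% and 2.55% for *Ifih1*, 10.4% and 8.71% for *Zbp1* and 33.0% and 23.0% for *Trex1*. It was 38.3% and 4.44% for *Cgas* and 16.4% and 27.0% for *Sting1*, which rest on few counts, and 1.53% and 4.46% for *Irf3*. These values describe 3 libraries each and were not compared by a test. Of the 10 genes, 4 were highest in STING Loxp replicate 1, 1 (*Ikbke*) in replicate 2 and 2 in replicate 3. Over all genes tested, these shares were 18.73%, 16.97% and 17.64%. In STING LKO replicates 1, 2 and 3, 2, 1 and 0 of the 10 genes were highest, against 15.75%, 16.63% and 14.27% of all genes tested.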
